A study of Mus musculus with 3 samples.

Results

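The genes described here encode the machinery that puts the histone variant H2A.Z into nucleosomes and takes it out again. They were chosen by name as subunits of the SRCAP and p400/TIP60 complexes, together with the H2A.Z remover Anp32e. Of 10 names, 9 had a row among the 15311 genes of the expression table. These were Ep400, Ruvbl1, Ruvbl2, Kat5, Trrap, Dmap1, Vps72, Znhit1 and Anp32e, while Srcap had none under its symbol or older symbols and was not analysed here. RNA-seq libraries (3 in all) were made from oligo(dT)-selected RNA of male mouse embryonic stem (ES) cells. K3R3 cells (1 library) carried a transgene for a YFP-tagged H2A.Z (YFP is a yellow fluorescent protein) in which 3 lysines near the C-terminus were replaced by arginine. Wild-type (WT) cells (2 libraries) carried the same fusion with the lysines intact. In both groups the transgene was a lentiviral construct under a doxycycline-controlled CMV promoter, doxycycline was given at 1 µg/ml, and YFP-positive cells were sorted. Both also carried short hairpins against the endogenous H2A.Z transcript and were grown with serum and leukemia inhibitory factor, without feeder cells in the last passage. The labels name the strain V6.5, whereas their treatment text describes the transgenic lines as KH2 ES cells, and they do not say how many clones or cultures stand behind a library. As K3R3 has 1 library, the p-values and intervals below rest on the spread between the 2 WT libraries, which may be technical. That spread enters as a trend with level over all genes, not gene by gene, and the single K3R3 library is taken to have the same.

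H2A.Z replaces the canonical histone H2A at promoters and enhancers. The SRCAP complex and the p400/TIP60 complex exchange an H2A–H2B dimer for an H2A.Z–H2B dimer, each driven by a large SWI2/SNF2-type ATPase (Srcap or Ep400). Ruvbl1 and Ruvbl2, a pair of AAA+ ATPases, assemble into the ring on which these complexes and the related INO80 complex are built. Kat5 (TIP60) acetylates histones H4 and H2A.Z, Trrap is the giant scaffold that contacts transcription factors, and Anp32e is a histone chaperone that strips H2A.Z from nucleosomes. In mouse ES cells the p400/TIP60 complex is known for a role in keeping the undifferentiated state.

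The hairpins are shown because they define the H2A.Z background that K3R3 and WT cells share. Per the labels 2 were used, and the labels do not say which one a library carried. Both are written 5′ to 3′ in lower case with nothing marked.
sh#2: aacagctgtccagtgttggtg
sh#5: aattagccttccaaccaacca
Each of these 21-base sequences matched the sense strand of H2afz in its 3′ untranslated region on chromosome 3 of build GRCm38, at chr3:137866491-137866511 and chr3:137866587-137866607 on the plus strand. The reverse complements of both also occurred in transcripts annotated as Gm26623 and Tmcc1. No exchange gene held either sequence. The longest uninterrupted run that an annotated transcript of the 10 exchange genes shared with a hairpin, in either orientation, was 11 bases, reached in Srcap and Trrap with sh#2.

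The table held 24718223 counts for K3R3, against 21614693 and 25426228 for the WT replicates. Of 14 ES cell markers all were detected, 0 rose and 4 fell in K3R3 by the edgeR test described below, which called 2.02% of all genes higher and 0.542% lower, and their summed level was 5542 CPM (counts scaled to library size) in K3R3, against 8046 and 7149 CPM in WT. Fibroblast markers, of which 12 of 14 could be tested, had 1 call and it was higher, and they summed to 176 CPM in K3R3, against 144 and 169 CPM in WT. Of 7 primitive endoderm markers 0 rose and 3 fell (against the same 2.02% and 0.542% of all genes), with sums of 217 CPM in K3R3, against 422 and 357 CPM in WT. The 5 testable trophoblast markers had 0 calls and summed to 99.9 CPM in K3R3, against 138 and 65.5 CPM in WT. The part of these shifts in the values below was not tested. In such bulk libraries fewer cells of a type and less RNA per cell cannot be told apart.

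Levels per gene length spanned more than an order of magnitude among the 9 genes, and the H2A.Z remover stood at the top of these 9. Levels are given here as the deposited RPKM values (reads scaled to gene length and library size). Anp32e stood at 105 RPKM in K3R3, against 107 and 117 RPKM in WT, higher than 97.5% of all genes in the WT mean. The ATPase pair came next, Ruvbl1 with 44.2 RPKM in K3R3, against 40.4 and 36.3 RPKM in WT, and Ruvbl2 with 33.1 RPKM in K3R3, against 34.5 and 27.1 RPKM in WT. Kat5 and Ep400, the acetyltransferase and the large ATPase of the p400/TIP60 complex, formed the middle. Every one of the 9 stood above the median gene in K3R3 (3.88 RPKM) and in the WT mean (3.43 RPKM). Kat5 had 14.0 RPKM in K3R3, against 13.4 and 12.9 RPKM in WT, and Ep400 had 10.3 RPKM in K3R3, against 11.3 and 11.2 RPKM in WT. The lowest 4 were Vps72, Dmap1, Trrap and Znhit1, between 5.17 and 6.85 RPKM in K3R3 and between 3.26 and 7.83 RPKM in the WT libraries. From Anp32e down to Vps72 each gene's range over the 3 libraries lay wholly above that of the next, whereas among the last 4 every neighbouring pair overlapped. The highest member exceeded the lowest 20.3-fold in K3R3 and 25.1-fold in the WT mean. All 9 were classed in the deposited table as active genes, a class that held 75.4% of its rows.

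**Figure D1:**
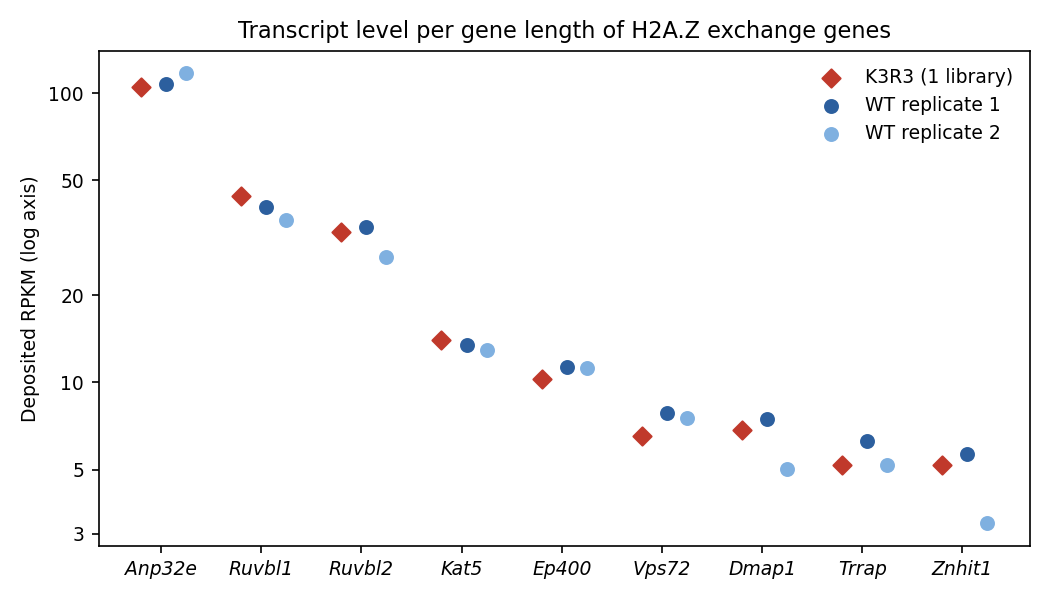
Deposited RPKM (log axis) of the 9 exchange genes in K3R3 (diamonds, 1 library) and in the 2 WT replicates (circles), ordered by the WT mean. Anp32e stands at 105 to 117 RPKM in all 3 libraries, and the last 4 genes overlap one another between 3.26 and 7.83 RPKM.

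Transcripts of Ep400 and Trrap, the ATPase and the scaffold of the p400/TIP60 complex, were below both WT libraries in K3R3, and neither difference passed the test. From here on, levels are CPM after TMM normalisation, differences are fitted log2 values of K3R3 minus WT with their 95% intervals, and a call is an adjusted p under 0.05 in edgeR (quasi-likelihood test, Benjamini-Hochberg over 13829 genes). Ep400, the ATPase that drives exchange in the p400/TIP60 complex, had 157 CPM in K3R3, against 190 and 185 CPM in WT. K3R3 lay below both WT libraries, which differed from each other by 0.04 on the log2 scale in size, less than either did from K3R3. The fitted difference was -0.26 (SE 0.20, interval -0.66 to 0.14, adjusted p = 0.81 by edgeR). A processed pseudogene, Gm12928, matches 569 bases of the Ep400 transcript exactly. Trrap, the scaffold shared with the SAGA acetyltransferase complex, had 91.3 CPM in K3R3, against 122 and 98.9 CPM in WT. It too was lowest in K3R3, but there the WT replicates lay farther apart than K3R3 did from the nearer of them. Its difference was -0.27 (SE 0.22, interval -0.70 to 0.16, adjusted p = 0.82 by edgeR).

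Neither gene of the AAA+ ATPase pair was called, and with TMM both K3R3 values lay between the WT libraries. Ruvbl1 had 103 CPM in K3R3, against 104 and 92.0 CPM in WT, a difference of 0.08 (interval -0.35 to 0.51). Ruvbl2 had 78.6 CPM in K3R3, against 89.7 and 69.5 CPM in WT, a difference of -0.02 (interval -0.47 to 0.43). The K3R3 value of Ruvbl1 was just below WT replicate 1 (log2 -0.0069), and in the RPKM values above it was the highest of the 3 libraries. Ruvbl2 lay between the WT replicates on both scales. Replicate 2 was the lowest library for both genes. A processed pseudogene, Gm5837, is 99.3% identical to Ruvbl1 over 1369 of its 1675 transcript bases, so reads of the pair may have been split or dropped in the authors' counting. Exons of Ruvbl2 share bases with Gys1 and Lhb on the opposite strand, and reads of these genes cannot be told apart there unless the counting used strand, which no source used here states.

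The acetyltransferase and its partner Dmap1 lay within or at the edge of the WT pair with TMM, while in RPKM Kat5 was above both WT libraries. Kat5 had 39.8 CPM in K3R3, against 42.0 and 39.8 CPM in WT, a difference of -0.04 (interval -0.57 to 0.49). K3R3 and WT replicate 2 were equal to 3 digits. Dmap1, a subunit that the SRCAP and p400/TIP60 complexes share, had 382 counts in K3R3, against 368 and 289 counts in WT. That was 14.7 CPM in K3R3, between the 17.5 and 11.6 CPM of WT, and the difference was 0.01 (interval -0.65 to 0.67). Exons of Kat5 share 12.1% of their bases with Rnaseh2c on the opposite strand.

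Vps72 and Anp32e, whose products bind H2A.Z, were each below both WT libraries in K3R3, and neither was called. Vps72 (YL1), which carries the H2A.Z–H2B dimer to the complexes, had 345 counts in K3R3, against 367 and 412 counts in WT. Its level was 13.3 CPM in K3R3, against 17.5 and 16.6 CPM in WT, so K3R3 was lowest and the WT libraries lay close together. The difference of -0.36 was the lowest of the 9 (SE 0.34, interval -1.02 to 0.30, adjusted p = 0.89 by edgeR). In linear terms the interval ran from 0.492-fold to 1.23-fold. Anp32e, which takes H2A.Z out, had 485 CPM in K3R3, against 544 and 584 CPM in WT. K3R3 was again lowest, and the difference was -0.22 (SE 0.18, interval -0.57 to 0.13, adjusted p = 0.83 by edgeR). At 12614 counts in K3R3 its counting error was 0.890%, far smaller than the interval. Znhit1, a small zinc-finger subunit of the SRCAP complex, had 197 counts in K3R3, against 191 and 128 counts in WT. With 7.57 CPM in K3R3, against 9.09 and 5.16 CPM in WT, the K3R3 value fell inside the WT pair, and the difference was 0.09 (interval -0.69 to 0.87). The exons of Znhit1 share 28.4% of their bases with Plod3 on the opposite strand, the largest such share among the 9 genes.

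Across the machinery, 0 of the 9 genes were called in K3R3, where 2.57% of all 13829 genes were called (280 or 2.02% higher and 75 or 0.542% lower). With library totals taken from the RPKM values, which raise all of K3R3 slightly, 466 were called higher and 50 lower, and again 0 of the 9, against 3.73% of all genes. At an unadjusted p under 0.05 the count was also 0 of 9, against 11.2% of all genes, and DESeq2 called 0 of 9, against 0.427% of all genes. The median difference of the 9 was -0.04, against -0.01 over all genes tested, and 6 of 9 lay below 0, as did 52.0% of all genes. Over the 8970 genes within the same range of mean level as the 9 (7.27 to 538 CPM) the median was -0.07. With the RPKM totals the median of the 9 was 0.08 and that of all genes 0.11, and Ruvbl2 and Kat5 turned to the positive side. By position alone 5 of 9 lay outside both WT libraries, against 68.1% of all genes. All 5 lay below (Ep400, Trrap, Vps72, Anp32e and, by less than the last printed digit, Kat5), against 34.2% of all genes. Above both lay 0 of 9, against 33.9% of all genes. With the implied totals 4 lay below, against 19.2% of all genes, and 2 above, Ruvbl1 and Kat5, against 48.7% of all genes. Vps72 was the 1 gene at least 1.2-fold below both WT libraries, a distance that 8.75% of all genes reached downwards and 27.6% in either direction. At least 2-fold outside lay 0 of 9, against 6.08% of all genes. For 8 of the 9 genes, all but Vps72, the 95% interval lay within a 2-fold change in either direction, which held for 60.1% of all genes. The median half-width of the interval was 0.45 on the log2 scale for the 9, against 0.62 over all genes.

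**Figure D2:**
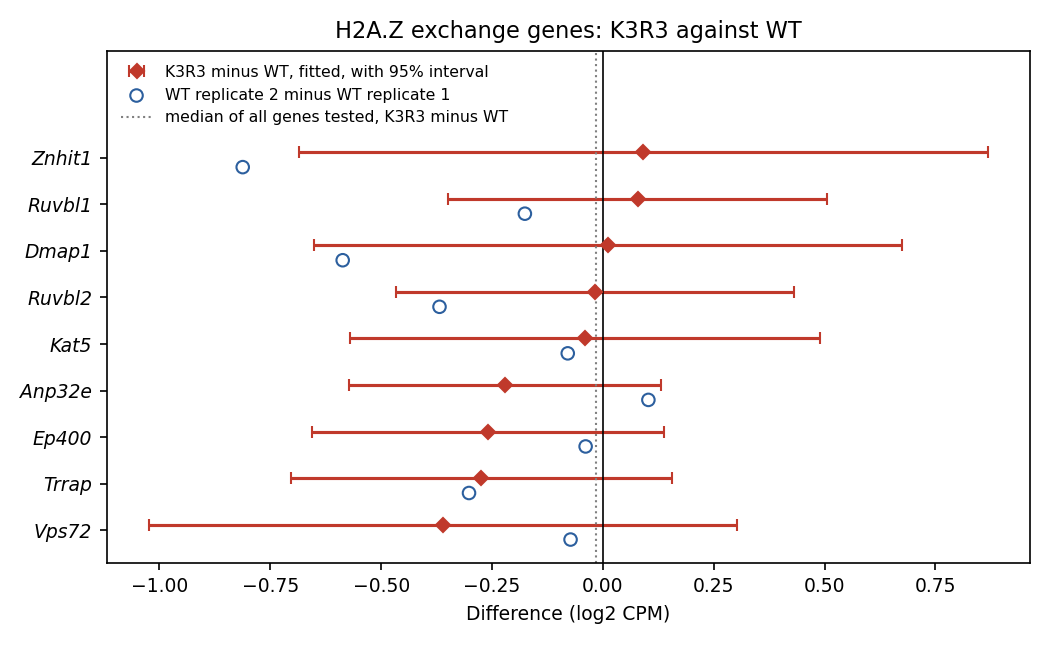
Fitted log2 difference of K3R3 minus WT with its 95% interval (diamonds) and the log2 difference of WT replicate 2 minus replicate 1 (open circles) for the 9 exchange genes, with the median of all genes tested as a dotted line. Every interval contains 0, and the WT circles of Znhit1, Dmap1 and Ruvbl2 lie farther from 0 than any diamond.

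The WT replicates differed from each other more than K3R3 differed from their mean in 6 of the 9 genes, against 52.5% of all genes. Replicate 2 was lower than replicate 1 in 8 of 9, Anp32e being the exception, against 48.9% of all genes. The difference of replicate 2 minus replicate 1 was -0.81 for Znhit1, -0.59 for Dmap1, -0.37 for Ruvbl2 and -0.30 for Trrap. It was between -0.18 and 0.10 for the other 5. The difference of K3R3 minus 1 replicate alone shows the same split. The median of the 9 was -0.25 against WT replicate 1 and -0.00014 against replicate 2, while the median of all genes was within 0.01 of 0 against either. Among the 8970 genes that lay within the same range of mean level as the 9 (7.27 to 538 CPM), 1.65% were called and 64.8% lay outside both WT libraries.

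**Figure D3:**
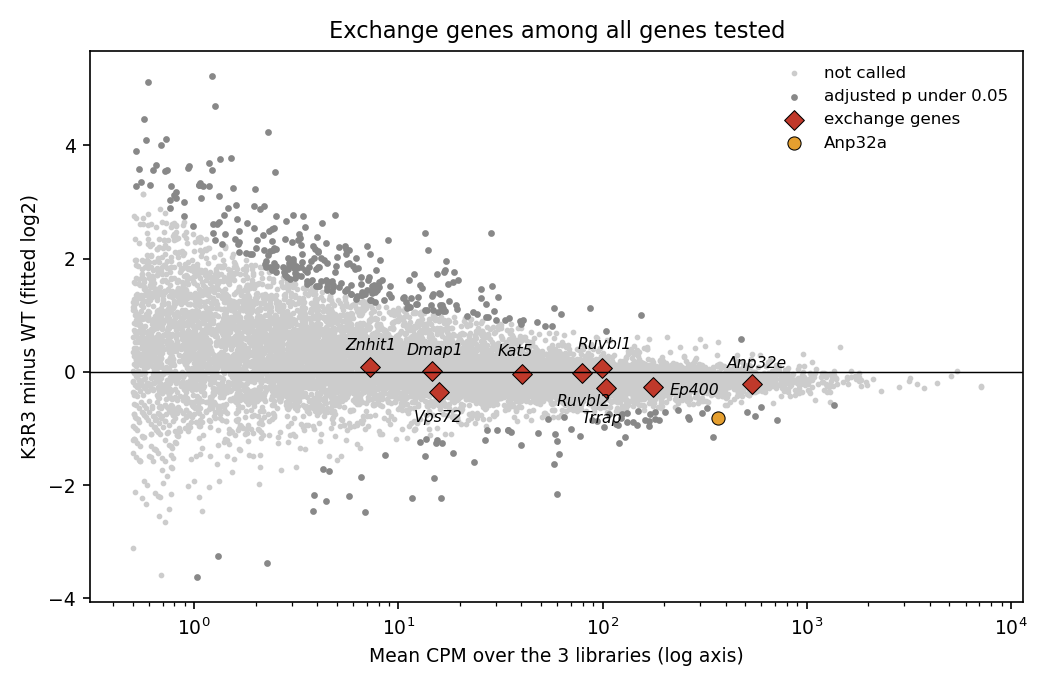
Fitted log2 difference of K3R3 minus WT against the mean CPM of the 3 libraries (log axis) for 13829 genes, with the 9 exchange genes as diamonds, called genes in dark grey and Anp32a as a circle. The exchange genes sit inside the uncalled cloud between -0.36 and 0.09, and Anp32a, at -0.82, is among the called genes.

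Ratios between genes within 1 library do not depend on how libraries are scaled. Ruvbl1 stood to Ruvbl2 as 1.33 in K3R3, against 1.17 and 1.34 in WT, in RPKM. K3R3 therefore lay within the WT pair, and Ruvbl1 was the higher of the ATPase pair in every library. Kat5 stood to Ep400 as 1.36 in K3R3, against 1.19 and 1.15 in WT. This ratio was outside the WT pair and farther from it than the WT libraries were from each other (log2 0.22 for K3R3 minus WT and -0.04 for replicate 2 minus replicate 1). Dmap1 stood to Ep400 as 0.668 in K3R3, against 0.658 and 0.449 in WT. Vps72 stood to Anp32e as 0.0621 in K3R3, against 0.0728 and 0.0645 in WT. Both ratios were also outside the WT pair, but K3R3 lay nearer to 1 WT library than the WT libraries did to each other. The transcript of the remover exceeded that of Vps72, an H2A.Z-binding subunit, in all 3 libraries. With 1 K3R3 library these ratios carry no test, and the share of other gene pairs outside the WT pair was not computed. Among single genes 68.1% lay outside both WT libraries.

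The other genes of the exchange pathway were examined as lists, whose counts stand against the 2.02% of all genes called higher and the 0.542% called lower. Of 13 other SRCAP and TIP60 subunits 0 rose and 0 fell, with a median of -0.11. Their extremes were Actr6, an actin-related subunit of the SRCAP complex, at 0.13 and Epc2, an enhancer-of-polycomb subunit of the TIP60 complex, at -0.26. Of 12 genes of the INO80 complex, a remodeller built on the same Ruvbl ring, 0 rose and 0 fell, with a median of -0.08. Its ATPase Ino80 had 101 CPM in K3R3, against 143 and 118 CPM in WT (log2 -0.37, adjusted p = 0.58 by edgeR), and Actr5 lay at the other end with 0.39. Of 18 SAGA and ATAC partners of Trrap 0 rose and 0 fell, with a median of -0.03. The acetyltransferase Kat2b was lowest at -0.52, with 110 CPM in K3R3, against 154 and 161 CPM in WT (adjusted p = 0.22 by edgeR), and the adaptor Tada2b highest at 0.35. The 10 R2TP and chaperone partners of the Ruvbl pair also had 0 calls, with a median of -0.03 and extremes of 0.39 for Telo2 and -0.25 for Hsp90ab1. The 4 other MYST family acetyltransferases had 0 calls and a median of -0.11, from -0.03 for Kat7 (Myst2 in the table) to -0.23 for Kat6a (Myst3). By DESeq2, which called 0.427% of all genes, the members of these 5 lists had 0 calls as well. Against 1 WT replicate at a time the median ran from -0.097 to 0.065 for the R2TP list and from -0.095 to 0.018 for the SAGA and ATAC list, so the direction of both turned with the library left out. It ran from -0.18 to -0.0076 for INO80, from -0.11 to -0.084 for the other SRCAP and TIP60 subunits and from -0.16 to -0.057 for the MYST family. With library totals implied by RPKM the 5 medians lay between 0.01 and 0.10, on the other side of 0 and at or below the median of all genes (0.11).

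A relative of Anp32e was the 1 gene called in the related lists, which held 13, 12, 18, 10, 4, 8 and 2 tested genes. Over all genes 2.57% were called. Anp32a, an acidic nuclear phosphoprotein of the same family that is known as an inhibitor of protein phosphatase and of histone acetylation, fell to 244 CPM in K3R3, against 431 and 428 CPM in WT. The WT libraries were nearly equal and K3R3 was lower than both, by 0.82 on the log2 scale (log2 -0.82, SE 0.19, interval -1.19 to -0.44, adjusted p = 0.0025 by edgeR). DESeq2 gave an adjusted p of 0.032, and over all 7 other fits the adjusted p ranged from 0.0021 to 0.032 and the difference from -0.83 to -0.69. Anp32b, the third of these paralogs, had 854 CPM in K3R3, against 925 and 937 CPM in WT (log2 -0.13). Whether Anp32a and Anp32e differed in their response was not tested. Of 8 genes in the list of other ANP32 members and histone chaperones, 0 rose and 1 fell, and 8 of 8 lay below both WT libraries, against 34.2% of all genes. These 8 had WT means from 214 to 4519 CPM, and the share below both among genes of such levels was not computed. With library totals implied by RPKM 3 of the 8 lay below both and 2 above. Their median was -0.15, against -0.01 over all genes, and with the implied totals -0.03, against 0.11 over all genes. The ES cell markers above were also lower in K3R3 as a sum, with 12 of the 14 fitted values below 0 and 2 above. Their part in the value of Anp32a was not tested.

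**Figure D4:**
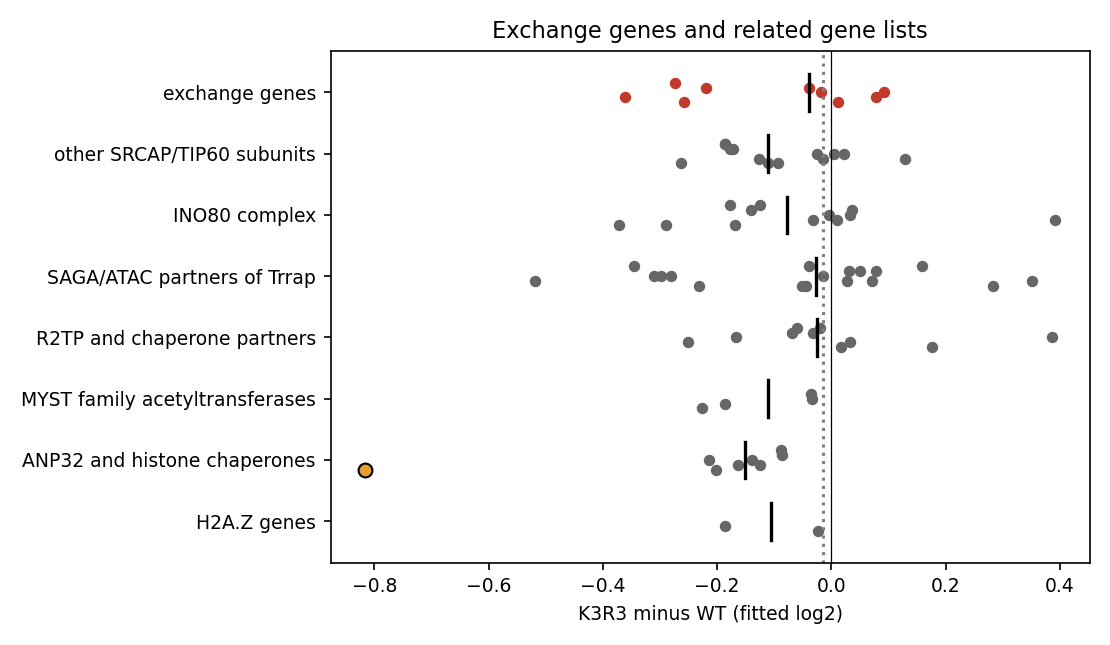
Fitted log2 difference of K3R3 minus WT for each tested gene of the exchange genes and of 7 related lists. Vertical bars are list medians and the dotted line is the median of all genes. Anp32a at -0.82, drawn as an outlined circle, is the 1 called gene.

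The 2 genes of the histone that this machinery moves gave 0 calls, where 2.57% of all genes were called. H2afz, which encodes H2A.Z.1, had 222 CPM in K3R3, against 219 and 232 CPM in WT. Whether transgene reads were counted under this gene was not tested. H2afv, the gene of H2A.Z.2, had 30.0 CPM in K3R3, against 37.1 and 31.2 CPM in WT (log2 -0.19, interval -0.75 to 0.38).

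The promoters of the exchange genes were compared as sequence only, since no binding or chromatin mark was measured in these libraries. RefSeq promoters of build GRCm38.p6, from 250 bases before to 50 after a start, were found for 9 of the 10 names with 11 starts in all, and Vps72 was the name without an entry. The member promoters had a median GC content of 56.3% and 17 CpG dinucleotides, against 60.3% and 19 over the 13583 promoters of genes in the expression table. Those of Ep400 (71.0% GC, 33 CpG) and Trrap (69.0% GC, 31 CpG), the 2 longest genes of the 9 by deposited length, were among the richest, and that of Ruvbl1 (45.7% GC, 11 CpG) was the poorest in GC. On either strand, the GC box GGGCGG occurred in 54.5% of the 11 and 60.2% of all, CCAAT in 36.4% and 37.6%, TATAAA in 9.09% and 7.78%, the NRF1 core GCATGCG in 0 of 11 and 5.77%, and the YY1 core ATGGCGG in 9.09% and 6.94%. The ETS core CCGGAAG was found in 3 of the 11 (27.3%), against 15.1% of all, at starts of Dmap1, Kat5 and Znhit1. The windows below are shown as the ETS cores that lie before a start, in Dmap1 and Znhit1, with the 1 YY1 core of the members. The 2 ETS cores of Kat5 begin after the start of the promoter that holds them, at 13 and 38. The windows are 30 bases of the gene's own strand with the core in capitals, ETS in the first 3 and YY1 in the last. They lie on the minus strand at chr4:117682269-117682298, chr4:117682229-117682258, chr5:136986894-136986923 and chr5:136986991-136987020.
Dmap1, first core: ctaagcaccgaCCGGAAGtgtttctaaggg
Dmap1, second core: acgacgcacagCCGGAAGttcctatccgtg
Znhit1, ETS core: tgtgcacgccaCCGGAAGgggtgtgctcag
Znhit1, YY1 core: ccctatcaaagATGGCGGaaagcgaaagct
In position the Dmap1 cores began at -62 and -22 and those of Znhit1 at -8 and -105, from the start of the promoter that holds them. Znhit1 and Kat5 each have another annotated start, from which no position is given. A match is a description of letters and not a binding site.

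The authors' deposited table gave no exchange gene an unadjusted p under 0.05, and the share of all genes under it there was not computed. In the authors' deposited table the p-values of the 9 ran from 0.261 for Ep400 to 0.985 for Ruvbl2. The log2 values there run the other way, WT over K3R3 by the counts. In the authors' deposited table Vps72 had 0.37, Trrap 0.29, Ep400 0.27 and Anp32e 0.23, and these 4 were the highest of the 9.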

How the data were processed

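The deposited counts are whole numbers of reads per gene, for which the submitters' processing notes name HTSeq 0.5.4p1 and build mm9. The deposited RPKM values use the listed gene length and, in each library, a single total, of which the listed counts make up 66.2% to 67.1%. The deposited ratio (fold), its log2 value and an unadjusted p-value are from the authors' comparison (DESeq 1.10.1 per the submitters' processing notes). Aligner, annotation and strand setting: not given in the sources used here. As the lowest listed count was 1, genes at 0 in any library have no row.

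Testing used edgeR 4.0.16 (R 4.3.3). TMM factors were computed on all rows, and a minimum mean of 0.5 CPM was required for testing (quasi-likelihood, two-sided, Benjamini-Hochberg at 0.05), K3R3 against both WT libraries, with 1 residual degree of freedom. The prior degrees of freedom were infinite, so SE and intervals rest on the trend of dispersion with level. Differences against 1 library are log2 CPM with a prior count of 1. Alternatives included DESeq2 1.42.0. The fit was tested on simulated data. The genes and related lists were chosen with earlier results of these data known. All 9 exchange genes are named, and of each related list the called members or, with none, both extremes, with H2afz and H2afv always. Anp32b was named after its values were seen. Srcap and the planned ratios to it were not analysed here. Transcripts, exon overlaps and hairpin matches are from GENCODE M21 on GRCm38, a different build from the counts. Near-identical transcripts were searched with blastn 2.17.0 at 95% identity over at least 200 bases. Counting intervals cover counting error only.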

Additional observations from a re-analysis of the deposited data

How the results depend on the processing

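No exchange gene was called under any of the 7 other fits (DESeq2 size factors, column totals, totals implied by RPKM, no low-count filter, a minimum mean CPM of 2, DESeq2 and the edgeR likelihood ratio test). Leaving out a WT replicate leaves no residual degree of freedom, so it gives values without a test. Over all genes DESeq2 called 59 genes (33 higher, 26 lower), against 355 (280 and 75). The calls over all genes were 353 with DESeq2 size factors and 355 without the low-count filter. They were 292 at a minimum mean CPM of 2 and 400 by the edgeR likelihood ratio test. Higher calls numbered 448 with column totals and 466 with the implied totals, which raised the share of higher calls among 500 and 516 calls. With column totals and with implied totals in turn, the difference was 0.094 and 0.11 for Ruvbl2, 0.072 and 0.084 for Kat5, 0.079 and 0.091 for Myst2 (Kat7), and 0.088 and 0.099 for H2afz. These 4 were slightly below 0 with TMM, and the same scalings moved the median of all genes to 0.10 and 0.11. Implied totals put 2 exchange genes above both WT libraries instead of 0. Without 1 WT replicate in turn, the difference ranged from -0.0069 to 0.17 for Ruvbl1, from -0.19 to 0.18 for Ruvbl2, from -0.25 to 0.33 for Dmap1, from -0.26 to 0.55 for Znhit1, from -0.0023 to 0.27 for Actr6 and from -0.064 to 0.017 for H2afz. The median of the 9 ranged from -0.25 to -0.00014. Ep400, Trrap, Vps72, Anp32e and Anp32a stayed negative under all 9 alternatives. The order of the 9 by RPKM differed from that of the WT mean at 4 positions in K3R3 and at 0 to 2 in a single WT replicate, and at 7 positions when CPM, which is not divided by length, replaced RPKM. No paired analysis was possible because K3R3 has 1 library and shares no numbered pairs with WT. Depth limits Znhit1, Vps72 and Dmap1 most, with 128 to 412 counts per library.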
